A study of Homo sapiens with 48 samples.

Results

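The expression of genes in untreated MP41 cells was compared with that in untreated MEL202 cells, 2 human uveal melanoma cell lines. The comparison took the DMSO samples of the experiments in which these lines met FHT-1015, a compound that blocks the ATPases of the BAF remodellers of chromatin: 12 of the 48 samples in the series. There were 3 replicates of each line at 4 h and 3 at 24 h, which gave 6 samples per line in 4 groups. DMSO is the solvent in which such compounds are given, and the labels mark it as the negative control; all 12 samples carried it, none carried an inhibitor, and the labels give the genotype of each as WT. Polyadenylated RNA was sequenced. Each line comes from the tumour of 1 patient, so the comparison is between 2 lines and not between classes of tumour, and replicates measure the spread between samples of a line.

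Uveal melanoma arises from melanocytes of the eye, pigment cells that descend from the neural crest. As background, most such tumours carry an activating mutation in GNAQ or GNA11, the alpha subunits of Gq and G11, which signal through phospholipase C beta to protein kinase C and the MAPK cascade, and through TRIO, RHOA and RAC1 to YAP. MEL202 is known for an activating GNAQ mutation and an SF3B1 mutation, and MP41, which was derived from a patient xenograft of a primary tumour, for an activating GNA11 mutation. Melanocyte identity and pigment synthesis rest on the transcription factors MITF and SOX10. MITF binds the M-box, a short sequence in the promoters of pigment genes.

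The promoters of 4 pigment genes, of which TYR, DCT and OCA2 were called between the lines, are shown because they hold copies of its core. The bases around the core were not searched. The 250 bases before the transcription start were read from the RefSeq promoter table (build GRCh38.p14), which held 5 of the 8 pigment genes looked up. RAB38, SLC45A2 and PMEL were not matched. Capitals mark each match to the core of the M-box, CATGTG or, on the other strand, CACATG. TYR encodes tyrosinase, the rate-limiting enzyme of melanin synthesis, and its window lies at chr11:89177625-89177874 on the plus strand, with matches that begin 104 and 12 bases before the start. DCT encodes dopachrome tautomerase, which acts after tyrosinase, and has 2 starts in the table; the window of the start at chr13:94479683-94479932 on the minus strand holds matches at 215 and 134 bases, and the other window holds none. TYRP1 encodes the related melanosome enzyme, with its window at chr9:12693135-12693384 on the plus strand and matches at 144 and 11 bases. OCA2 encodes a melanosome membrane protein that acts on the pH of the organelle, with its window at chr15:28099316-28099565 on the minus strand and 1 match at 153 bases.
TYR: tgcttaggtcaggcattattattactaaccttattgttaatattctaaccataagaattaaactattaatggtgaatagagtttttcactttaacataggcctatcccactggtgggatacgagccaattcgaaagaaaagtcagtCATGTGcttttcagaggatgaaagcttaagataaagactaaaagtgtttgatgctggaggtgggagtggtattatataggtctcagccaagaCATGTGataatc
DCT: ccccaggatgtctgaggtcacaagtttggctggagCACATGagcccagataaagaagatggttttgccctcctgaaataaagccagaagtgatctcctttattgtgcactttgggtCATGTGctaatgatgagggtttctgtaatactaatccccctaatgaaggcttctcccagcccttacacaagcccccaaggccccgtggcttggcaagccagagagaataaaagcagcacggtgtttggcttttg
TYRP1: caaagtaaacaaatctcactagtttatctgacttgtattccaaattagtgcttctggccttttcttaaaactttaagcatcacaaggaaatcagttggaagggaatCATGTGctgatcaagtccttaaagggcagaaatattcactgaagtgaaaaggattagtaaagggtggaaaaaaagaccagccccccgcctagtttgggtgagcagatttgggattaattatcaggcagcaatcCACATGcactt
OCA2: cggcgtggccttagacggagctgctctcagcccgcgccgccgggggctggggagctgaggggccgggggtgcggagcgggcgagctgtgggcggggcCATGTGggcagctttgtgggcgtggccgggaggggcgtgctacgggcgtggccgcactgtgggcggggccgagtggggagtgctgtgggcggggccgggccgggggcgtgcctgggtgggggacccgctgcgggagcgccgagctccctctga

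The MLANA window held no match. A match was present in 9.4% of all promoter windows of the same length (3301 of 34943). A match is a description of the letters: TYR and DCT were higher in MP41, OCA2 was lower and TYRP1 was called in neither direction, with a match in each of the 4 windows.

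Reads counted in genes ranged from 17476118 to 22668217 (median 18411121) in the MP41 libraries and from 17050240 to 32317711 (median 19826667) in the MEL202 libraries. Reads from mitochondrial genes made up 1.31% to 3.64% of the counted reads in MP41 and 3.32% to 5.91% in MEL202. The 10 genes with the most reads took 5.22% to 5.88% in MP41 and 6.42% to 7.81% in MEL202. Principal component 1 of the log2 levels held 73.2% of the variance and separated the lines. On component 2, with 12% of the variance, MEL202 4 h replicate 1, MP41 24 h replicate 1 and MP41 24 h replicate 2 stood apart from the other samples of their lines. MP41 24 h replicate 2 had the lowest median rank correlation with its own line, 0.937. MEL202 replicate 2 at 4 h and MEL202 replicate 2 at 24 h lay closer to each other than any other 2 MEL202 libraries (chi-square per degree of freedom 6.49 over genes, against at least 32.2). On this measure the 3 pairs of MP41 4 h replicates gave 6.22 to 9.79, and pairs within the other groups 42.55 to 167.71. The spread between replicates was thus unequal between groups. The labels name no batch, and the lines may have been prepared apart, so line and preparation cannot be told apart. In bulk RNA, fewer cells of a kind and less RNA per cell cannot be told apart either.

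The lines differed widely in expression before any treatment. Of 16048 genes tested with edgeR, with line and time as terms, 7928 (49.4%) were called at a Benjamini-Hochberg adjusted p under 0.05. Of these, 3954 were higher in MP41 (24.6%) and 3974 lower (24.8%). At least 2-fold apart as well were 2355 higher genes (14.7%) and 2481 lower genes (15.5%). For 5041 genes (31.4%) the 6 MP41 samples lay all above or all below the 6 MEL202 samples, 2669 of them above and 2372 below. The median log2 difference over all genes, MP41 minus MEL202 throughout, was -0.03. With library size alone as the scale it was 0.06, and 4448 genes were called higher and 3540 lower. At least 16-fold apart were 461 called genes that were higher and 467 that were lower. With line and time as terms the biological coefficient of variation was 0.303, and the median standard error of a log2 difference was 0.24. Levels are given as CPM, counts scaled by the size of each library and by TMM factors, which allow a gene to be compared between samples but not with another gene, since they are not per length.

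Pigment genes moved apart within their own pathway, some far higher and some far lower in MP41. Among genes of pigment synthesis and the melanosome, 10 of the 24 tested members were called higher in MP41 (41.7%), 7 lower (29.2%) and 7 in neither direction, with a median log2 difference of 0.31, beside 24.6% higher, 24.8% lower and a median of -0.03 over all genes. TYR ranged from 796 to 1255 CPM (median 1056) in MP41 and from 115 to 182 CPM (median 151) in MEL202 (log2 difference 2.78, SE 0.16, adjusted p = 2.54e-09), 6.87-fold higher in MP41 with no overlap of the lines. DCT ranged from 93.5 to 162 CPM (median 129) in MP41 and from 0.425 to 1.64 CPM (median 1.13) in MEL202 (log2 difference 6.82, SE 0.32, adjusted p = 2.87e-10), which was 113-fold higher. RAB38, a small GTPase that brings these enzymes to the melanosome, ranged from 416 to 596 CPM (median 514) in MP41 and from 169.7 to 228 CPM (median 179.6) in MEL202 (log2 difference 1.43, SE 0.14, adjusted p = 7.43e-07). SLC45A2, a melanosome transporter, was 2.38-fold higher in MP41 (log2 difference 1.25, adjusted p = 2.29e-05). These 4 genes were higher in each MP41 sample than in any MEL202 sample. OCA2 lay on the other side and ranged from 0 to 0.397 CPM (median 0.113) in MP41 and from 8.42 to 18.7 CPM (median 10.7) in MEL202 (log2 difference -6.07, SE 0.51, adjusted p = 1.49e-07), 67.03-fold lower in MP41. ABCB5, an ATP-dependent transporter of pigment cells, was 7.88-fold lower (log2 difference -2.98, adjusted p = 2.92e-08), and MYO5A, the myosin that carries melanosomes, 1.83-fold lower (log2 difference -0.87, adjusted p = 0.00244), also without overlap.

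PMEL, MLANA and TYRP1, further melanosome proteins, differed by less than 2-fold. PMEL, which builds the fibrils of the melanosome, ranged from 4521 to 7539.9 CPM (median 5518) in MP41 and from 2891 to 4794 CPM (median 3778) in MEL202 (log2 difference 0.59, SE 0.17, adjusted p = 0.00903); it was not called at 4 h alone (adjusted p = 0.128). MLANA, the melanoma antigen also known as MART-1, ranged from 405 to 575 CPM (median 475) in MP41 and from 539 to 969.9 CPM (median 680.4) in MEL202 (log2 difference -0.61, SE 0.17, adjusted p = 0.0072) and was not called at 4 h alone either (adjusted p = 0.107). The lines overlapped for both genes. TYRP1 ranged from 2910.0 to 6007 CPM (median 4834) in MP41 and from 2508 to 4187 CPM (median 3956) in MEL202 and was not called (log2 difference 0.32, adjusted p = 0.164). It was called higher without MP41 24 h replicate 2 (adjusted p = 0.0434), without the 3 libraries that stood apart (0.0305), at 4 h alone (0.0296), with offsets for GC content and length (0.000384) and with the 36 samples of 3 lines (0.0476).

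Among regulators of the melanocyte lineage, MITF and SOX10 were not called, and KIT, FOXD3 and SOX2 were near 0 in 1 line. In the list of melanocyte and neural crest regulators, 6 of the 28 tested members were called higher in MP41 (21.4%), 15 lower (53.6%) and 7 in neither direction, with a median log2 difference of -0.72. The share called higher is near the 24.6% of all genes, and 24.8% of all genes were lower. MITF ranged from 296 to 603 CPM (median 355) in MP41 and from 232 to 458 CPM (median 355) in MEL202 and was not called (log2 difference 0.13, SE 0.17, adjusted p = 0.568). SOX10, which drives MITF, ranged from 400.0 to 1615 CPM (median 676) in MP41 and from 406 to 672 CPM (median 616) in MEL202 and was not called over both times (log2 difference 0.33, SE 0.23, adjusted p = 0.267). Its log2 difference was -0.26 at 4 h alone and 0.91 at 24 h alone (adjusted p = 0.00853), and the difference between the times was not called (adjusted p = 0.418). Both lines thus carried reads of both factors in every sample, and the lines overlapped.

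Other regulators were called between the lines. KIT (chr4:54657918-54740715), the receptor for stem cell factor on which melanocytes depend, ranged from 77.9 to 139 CPM (median 133) in MP41 and from 0 to 0.241 CPM (median 0.1199) in MEL202 (log2 difference 9.83, SE 0.35, adjusted p = 3.49e-11). IRF4, a transcription factor that acts with MITF on TYR, ranged from 94.7 to 119.5 CPM (median 108) in MP41 and from 2.79 to 6.62 CPM (median 5.26) in MEL202 (log2 difference 4.39, SE 0.22, adjusted p = 5.85e-10), 20.9-fold higher. ZEB1, a repressor of epithelial genes, was 8.91-fold higher (log2 difference 3.16, adjusted p = 1.01e-05), and ERBB3, a receptor of neural crest cells, 2.44-fold higher (log2 difference 1.29, adjusted p = 0.000127). For KIT, IRF4, ZEB1 and ERBB3 each MP41 sample lay above each MEL202 sample. The 4 lower members of the list with the largest differences were FOXD3, SOX2, MSX1 and SOX8. FOXD3 had 0 reads in the 6 MP41 libraries against from 8.07 to 15.1 CPM in MEL202, at least 71.01-fold lower. The bound sets the line without reads at a floor of 3 reads in each of its 6 libraries. SOX2, a stem cell factor, had 1 read in MP41 and 124 in MEL202, a ratio of 114 (counting interval 20.2 to 4556). MSX1 ranged from 3.102 to 4.22 CPM (median 3.47) in MP41 and from 34.6 to 68.2 CPM (median 51.9) in MEL202 (log2 difference -3.89, SE 0.20, adjusted p = 8.8e-10), and SOX8 ranged from 7.69 to 12.2 CPM (median 10.01) in MP41 and from 76.7 to 101 CPM (median 83.04) in MEL202 (log2 difference -3.10, SE 0.17, adjusted p = 1.35e-09). SNAI2, a neural crest repressor named after its value was seen, had a log2 difference of -2.94, adjusted p = 8.72e-08.

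**Figure D1:**
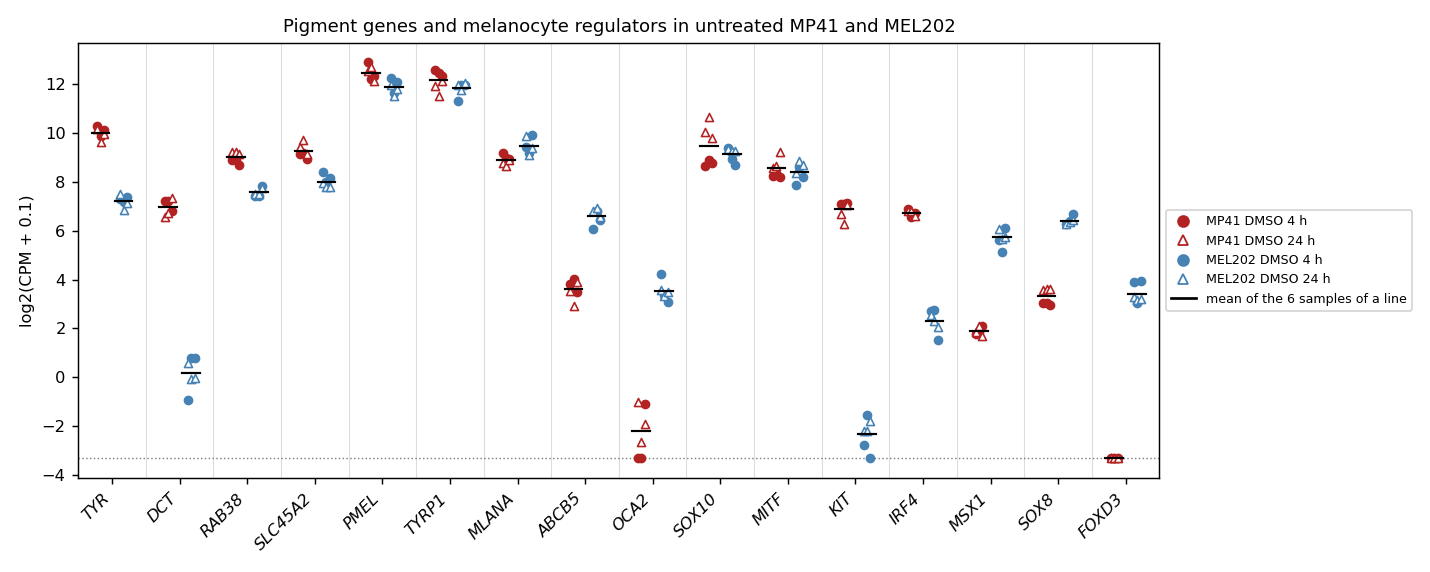
Levels of 16 pigment genes and lineage regulators as log2(CPM + 0.1) in the 12 untreated samples, with filled circles for 4 h, open triangles for 24 h, a bar for the mean of the 6 log values of a line and a dotted line for 0 CPM. MITF and SOX10 overlap between the lines, KIT and DCT lie higher in all 6 MP41 samples, and FOXD3 lies on the line of 0 CPM in MP41.

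Genes of Gq signalling differed between the lines at several steps, from phospholipase C to protein kinase C. In the list of uveal melanoma drivers and the Gq pathway, 11 of the 29 tested members were called higher in MP41 (37.9%), 10 lower (34.5%) and 8 in neither direction, with a median log2 difference of -0.10. All genes gave 24.6% and 24.8%. The 2 alpha subunits differed by less than 2-fold. GNAQ (chr9:77716087-78031458) ranged from 25.8 to 60.4 CPM (median 58.3) in MP41 and from 51.2 to 116 CPM (median 85.9) in MEL202 (log2 difference -0.86, SE 0.24, adjusted p = 0.00844), and was not called at 4 h alone (adjusted p = 0.253). GNA11 (chr19:3094410-3124004) ranged from 86.1 to 145 CPM (median 89.8) in MP41 and from 55.4 to 107 CPM (median 65.5) in MEL202 (log2 difference 0.51, SE 0.20, adjusted p = 0.0435). That call was lost without MEL202 4 h replicate 2 or 3, MEL202 24 h replicate 1, 2 or 3 or MP41 24 h replicate 1 or 2 (adjusted p from 0.0654 to 0.129), and with relative log expression normalisation, with no filter on low counts, with the replicate block and at 4 h alone. The counts do not tell mutant from wild-type reads.

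Of the phospholipase C beta enzymes, which cut the membrane lipid PIP2, PLCB1 ranged from 0.0419 to 0.695 CPM (median 0.186) in MP41 and from 14.6 to 33.2 CPM (median 21.7) in MEL202 (log2 difference -6.20, SE 0.45, adjusted p = 2.96e-08), 73.7-fold lower in MP41. PLCB3 was 3.15-fold lower (log2 difference -1.65, adjusted p = 6.96e-06), whereas PLCB4, itself mutated in some uveal melanomas, was 3.54-fold higher (log2 difference 1.82, adjusted p = 1.99e-05) and PLCB2 3.61-fold higher (log2 difference 1.85, adjusted p = 7.1e-06). The lines did not overlap for these 4 enzymes, so the family was split by member. Among protein kinase C isoforms, PRKCB ranged from 4.71 to 7.08 CPM (median 6.22) in MP41 and from 0 to 0.124 CPM (median 0.0303) in MEL202 (log2 difference 6.69, SE 0.43, adjusted p = 8.32e-09), and PRKCH ranged from 76.8 to 90.3 CPM (median 88.9) in MP41 and from 5.99 to 9.88 CPM (median 7.72) in MEL202 (log2 difference 3.51, SE 0.16, adjusted p = 1.94e-10). Each was thus near 0 or low in MEL202. RGS2, which ends Gq signals by speeding GTP hydrolysis, ranged from 1.99 to 12.5 CPM (median 8.204) in MP41 and from 249 to 721 CPM (median 477) in MEL202 (log2 difference -6.00, SE 0.40, adjusted p = 1.28e-08), 63.9-fold lower in MP41. RHOA, the GTPase on the arm to YAP, was 1.85-fold lower (log2 difference -0.89, adjusted p = 5.07e-05). GNG11, a G protein gamma subunit and 1 of the 12 largest differences, ranged from 0 to 0.153 CPM (median 0.103) in MP41 and from 211 to 554 CPM (median 273) in MEL202 (log2 difference -12.00, SE 0.45, adjusted p = 4.75e-11).

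Neither BAP1 nor SF3B1, both mutated in subsets of uveal melanoma, was called in the fit with TMM scaling. BAP1, a nuclear deubiquitinase, ranged from 135 to 244 CPM (median 154) in MP41 and from 152 to 236 CPM (median 184) in MEL202 (log2 difference -0.16, SE 0.17, adjusted p = 0.473). SF3B1, a splicing factor, ranged from 184 to 428 CPM (median 417) in MP41 and from 355 to 570.05 CPM (median 494) in MEL202 (log2 difference -0.38, SE 0.20, adjusted p = 0.135). SF3B1 was called lower with GC and length offsets (adjusted p = 0.004), with limma-voom (0.0324) and with the 36 samples of 3 lines (0.0265), and BAP1 with those offsets (0.0157). The lines overlapped for both, and a change in protein or in splicing is not measured by these counts. Of the genes used to class uveal melanomas by risk, 1 of the 12 tested members was called higher in MP41 (8.3%), 5 lower (41.7%) and 6 in neither direction, with a median log2 difference of -0.28. Among all genes 24.6% were higher and 24.8% lower. LMCD1, a LIM domain protein and a gene of the low risk class, was 1.95-fold higher in MP41 (log2 difference 0.97, adjusted p = 5.75e-05). The lower members were HTR2B, a serotonin receptor and gene of the high risk class (from 2.58 to 26.6 CPM (median 12.6) in MP41 and from 26.7 to 51.3 CPM (median 45.5) in MEL202; log2 difference -1.62, SE 0.39, adjusted p = 0.00266), ROBO1, a guidance receptor of the low risk class (log2 difference -1.26, adjusted p = 0.000117), PRAME, an antigen linked to metastasis (-0.78, adjusted p = 0.00021), FXR1, of the low risk class (-0.83, adjusted p = 0.00622), and RAB31, of the high risk class (-0.56, adjusted p = 0.0411), the last named after its value was seen. At 4 h alone HTR2B (adjusted p = 0.158) and FXR1 (0.186) were not called. CDH1 was not tested, with 28 reads in MP41 and 46 in MEL202. PRAME reads were present in all 12 samples, from 158 to 257 CPM (median 192) in MP41 and from 302 to 381 CPM (median 325) in MEL202.

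Of transcripts that the MAPK cascade induces, FOSL1 and IER3 were higher in MP41 and EGR3 and EGR1 lower. In the list of MAPK output and feedback genes, 11 of the 24 tested members were called higher in MP41 (45.8%), 6 lower (25%) and 7 in neither direction, with a median log2 difference of 0.19. The share called lower is near the 24.8% of all genes, and 24.6% of all genes were higher. FOSL1, an AP-1 subunit, ranged from 7.97 to 14.2 CPM (median 11.2) in MP41 and from 0.1204 to 0.992 CPM (median 0.477) in MEL202 (log2 difference 4.38, SE 0.31, adjusted p = 2.47e-08), 20.8-fold higher in MP41. IER3, an early response gene, ranged from 131 to 229 CPM (median 175) in MP41 and from 9.87 to 24.97 CPM (median 15.1) in MEL202 (log2 difference 3.44, SE 0.24, adjusted p = 2.29e-08). Of the feedback inhibitors, SPRY1 was 5.01-fold higher (log2 difference 2.33, adjusted p = 2.31e-07) and the phosphatase DUSP10 4.37-fold higher (2.13, adjusted p = 4.11e-07). The lines did not overlap for these 4. Of the early growth response factors on the list, both were lower: EGR3 ranged from 0.503 to 1.44 CPM (median 0.664) in MP41 and from 11.7 to 17.9 CPM (median 16.1) in MEL202 (log2 difference -4.31, SE 0.25, adjusted p = 2.68e-09), and EGR1 was 3.66-fold lower in MP41 (log2 difference -1.87, adjusted p = 3.45e-05). EGR2, which is among the Schwann cell markers, was higher (log2 difference 2.50, adjusted p = 1.99e-05). DUSP4, an ERK phosphatase, was 2.62-fold lower (-1.39, adjusted p = 1.55e-05). CCND1, cyclin D1, ranged from 392 to 719 CPM (median 480.3) in MP41 and from 277 to 557 CPM (median 465) in MEL202 and was not called (log2 difference 0.20, adjusted p = 0.408). EGR3 and DUSP4 lie on the short arm of chromosome 8, whose genes were lower in MP41 as a whole.

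For YAP and TEAD factors and their targets, 5 of the 23 tested members were called higher in MP41 (21.7%), 2 lower (8.7%) and 16 in neither direction, with a median log2 difference of 0.01. For all genes these shares were 24.6% and 24.8%. YAP1, the coactivator itself, ranged from 144 to 245 CPM (median 217) in MP41 and from 147 to 256 CPM (median 196) in MEL202 (log2 difference 0.01, adjusted p = 0.975). The higher members were NT5E, the ecto-enzyme CD73, at 28.1 ± 8.68 CPM in MP41 and 0.828 ± 0.333 CPM in MEL202 (SD, n = 6; log2 difference 5.04, SE 0.32, adjusted p = 6.76e-09), F3, tissue factor (log2 difference 1.89, adjusted p = 0.000228), AMOTL1 (1.03, adjusted p = 0.00217), the kinase LATS2 (0.86, adjusted p = 0.00257) and TEAD4 (0.71, adjusted p = 0.00148), the last named after its value was seen. AMOTL1 was not called at 4 h alone (adjusted p = 0.0554), nor LATS2 at 24 h alone (0.184). The lower members were TEAD2 (log2 difference -0.86, adjusted p = 0.000382) and VGLL4, which competes with YAP for TEAD (-0.59, adjusted p = 0.0172). The VGLL4 call was lost without MP41 4 h replicate 1 or 2 or MP41 24 h replicate 3 (adjusted p from 0.0534 to 0.0561), and at 4 h alone and at 24 h alone.

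Receptor tyrosine kinases included KIT, given above, and MERTK among the higher genes and FGFR1 among the lower. Of these receptors, 13 of the 27 tested members were called higher in MP41 (48.1%), 7 lower (25.9%) and 7 in neither direction, with a median log2 difference of 0.64. Of all genes 24.6% were higher and 24.8% lower, so the share called lower is near that of all genes. Beside KIT, MERTK, a receptor for ligands on dying cells that the retinal pigment epithelium also uses, ranged from 175 to 305 CPM (median 233) in MP41 and from 21.6 to 33.6 CPM (median 29.4) in MEL202 (log2 difference 3.05, SE 0.16, adjusted p = 1.16e-09). FGFR2 ranged from 4.37 to 7.21 CPM (median 5.01) in MP41 and from 0.2396 to 1.32 CPM (median 0.931) in MEL202 (log2 difference 2.71, SE 0.32, adjusted p = 5.53e-06), while FGFR1 ranged from 15.1 to 27.4 CPM (median 16.4) in MP41 and from 65.2 to 110.4 CPM (median 79.3) in MEL202 (log2 difference -2.10, SE 0.20, adjusted p = 5.15e-07). These 2 receptors for fibroblast growth factors thus lay on opposite sides, with no overlap of the lines. FGFR3 was 3.26-fold lower (log2 difference -1.70, adjusted p = 2.29e-06) and NTRK2, a neurotrophin receptor, 4.95-fold lower (-2.31, adjusted p = 0.000177). MST1R, a receptor for macrophage stimulating protein, was 6.26-fold higher (2.65, adjusted p = 0.00366), but not called at 4 h alone (adjusted p = 0.103). Of Eph receptors and ephrins, which signal between touching cells, 5 of the 17 tested members were called higher in MP41 (29.4%), 6 lower (35.3%) and 6 in neither direction, with a median log2 difference of -0.11. The share called higher lies near the 24.6% of all genes, and the share called lower lies above the 24.8%. With 17 members tested, a few genes make that gap. The higher members were EPHA10 (log2 difference 3.76), EPHA7 (2.96), EFNA5 (2.40), EPHA5 (2.02) and EPHB2 (0.88), the last named after its value was seen, with adjusted p from 3.5e-08 to 0.0148. The ligand EFNB2 ranged from 0.102 to 0.424 CPM (median 0.121) in MP41 and from 5.103 to 8.79 CPM (median 6.73) in MEL202 (log2 difference -5.32, SE 0.33, adjusted p = 6.11e-09).

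Genes of the extracellular matrix and of its receptors were called in both directions. In the list of mesenchymal and dedifferentiated melanoma genes, 7 of the 19 tested members were called higher in MP41 (36.8%), 9 lower (47.4%) and 3 in neither direction, with a median log2 difference of -0.42. The shares over all genes were 24.6% and 24.8%. FN1, fibronectin (chr2:215360440-215436172), ranged from 17.9 to 49.8 CPM (median 28.3) in MP41 and from 746 to 2571 CPM (median 1628) in MEL202 (log2 difference -5.71, SE 0.31, adjusted p = 1.29e-09), 52.3-fold lower in MP41. TGFBI, a matrix protein induced by TGF beta, ranged from 0.408 to 2.13 CPM (median 0.811) in MP41 and from 19.7 to 63.8 CPM (median 34.3) in MEL202 (log2 difference -5.22, SE 0.38, adjusted p = 2.82e-08), and TGFB2, a TGF beta ligand, ranged from 0 to 0.149 CPM (median 0.05201) in MP41 and from 1.398 to 6.201 CPM (median 3.39) in MEL202 (log2 difference -5.91, SE 0.59, adjusted p = 8.61e-07). For FN1, TGFBI and TGFB2 each MP41 sample lay below each MEL202 sample. LOXL2, a collagen cross-linking enzyme that lies on 8p, was 10.5-fold lower (log2 difference -3.39, adjusted p = 7.44e-08). SERPINH1, the collagen chaperone HSP47 at chr11:75562056-75572783, ranged from 0.0838 to 0.347 CPM (median 0.194) in MP41 and from 868 to 1234 CPM (median 1174) in MEL202 (log2 difference -12.49, SE 0.30, adjusted p = 1.54e-12). Its 22 reads in the 6 MP41 libraries stood against 145259 in MEL202. Higher in MP41 were FOXF1, a mesenchymal transcription factor (from 13.1 to 16.8 CPM (median 14.04) in MP41 and from 0.0602 to 0.2796 CPM (median 0.181) in MEL202; log2 difference 6.36, SE 0.27, adjusted p = 1.03e-10), and WNT5A, a non-canonical Wnt ligand (from 9.67 to 15.7 CPM (median 14.97) in MP41 and from 0.2399 to 0.919 CPM (median 0.353) in MEL202; log2 difference 4.97, SE 0.30, adjusted p = 4.31e-09). THBS1, thrombospondin, was 6.37-fold higher (log2 difference 2.67, adjusted p = 0.000429). The list name therefore covers members on both sides. CDH2, N-cadherin, was not called (log2 difference -0.42, adjusted p = 0.0509), but it was called lower without MEL202 4 h replicate 1 or 3 (adjusted p from 0.0225 to 0.0498) and under 9 of 14 alternatives, among them DESeq2 (0.0266), limma-voom (0.0324) and 24 h alone (0.0134).

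Of integrins and laminins, 12 of the 25 tested members were called higher in MP41 (48%), 5 lower (20%) and 8 in neither direction, with a median log2 difference of 0.35. Over all genes 24.6% were higher and 24.8% lower. ITGA4, integrin alpha 4, had 0 reads in MP41 and ranged from 0.364 to 0.903 CPM in MEL202, at least 4.498-fold lower (adjusted p = 5.7e-05), and its partner ITGB1, the beta 1 subunit common to many integrins, ranged from 119.8 to 322 CPM (median 295) in MP41 and from 504 to 987 CPM (median 815) in MEL202 (log2 difference -1.61, SE 0.24, adjusted p = 5.61e-05). ITGB8 was 34.5-fold lower (log2 difference -5.11, adjusted p = 5.91e-08). The other lower members were ITGA1 (-1.47, adjusted p = 0.00517; 0.167 at 4 h alone) and LAMB1 (-1.30, adjusted p = 1.4e-05), the last named after its value was seen. Higher in MP41 were LAMA4, a laminin chain of vessel walls (from 35.5 to 55.6 CPM (median 46.8) in MP41 and from 4.26 to 6.18 CPM (median 5.22) in MEL202; log2 difference 3.11, SE 0.19, adjusted p = 3.96e-09), ITGB3, the beta 3 subunit linked to invasion in melanoma (log2 difference 2.88, adjusted p = 2.12e-06), LAMB3 (2.82, adjusted p = 1.2e-06) and ITGB4 (2.14, adjusted p = 2.17e-05). Subunits of different integrin pairs were thus higher in each line, and none of these 4 overlapped. Of collagens, 8 of the 30 tested members were called higher in MP41 (26.7%), 14 lower (46.7%) and 8 in neither direction, with a median log2 difference of -0.61. The share called higher is near that of all genes. COL5A3 ranged from 2.33 to 16.4 CPM (median 5.798) in MP41 and from 0.0602 to 0.4797 CPM (median 0.154) in MEL202 (log2 difference 5.24, SE 0.42, adjusted p = 8.53e-08), and COL1A1, a chain of type I collagen, ranged from 11.7 to 38.7 CPM (median 17.1) in MP41 and from 0.5997 to 1.32 CPM (median 0.828) in MEL202 (log2 difference 4.45, SE 0.29, adjusted p = 9.6e-09). COL1A2, the other chain of type I collagen, was not tested, with 10 reads in MP41 and 28 in MEL202. COL3A1 was 15.1-fold lower (log2 difference -3.92, adjusted p = 1.31e-05), COL24A1 14.4-fold lower (-3.85, adjusted p = 7.53e-08) and COL18A1, the source of endostatin, 6.297-fold lower (-2.65, adjusted p = 2.28e-07).

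Cadherins and clustered protocadherins, adhesion molecules that mark cell surfaces, were mostly lower in MP41. Among them, 2 of the 23 tested members were called higher in MP41 (8.7%), 13 lower (56.5%) and 8 in neither direction, with a median log2 difference of -1.02, and 17 of the 40 listed were not tested. All genes had 24.6% higher and 24.8% lower. CDH3, P-cadherin on 16q, ranged from 0 to 0.176 CPM (median 0.0458) in MP41 and from 8.67 to 13.3 CPM (median 10.4) in MEL202 (log2 difference -7.34, SE 0.40, adjusted p = 1.57e-09). PCDHGB5 ranged from 0 to 0.1602 CPM (median 0.133) in MP41 and from 7.76 to 39.7 CPM (median 31.4) in MEL202 (log2 difference -7.98, SE 0.55, adjusted p = 1.55e-08), PCDHGB7 was lower too (log2 difference -4.48, adjusted p = 1.93e-07), and PCDHGB6 had 3 reads in MP41 and 148 in MEL202, a ratio of 45.5 (counting interval 15.3 to 223). Protocadherin gamma genes share their last exons, and reads there were counted to no single gene. The 2 higher members were PCDHB16 (log2 difference 1.76, adjusted p = 0.0168) and PCDHB15 (1.39, adjusted p = 0.00374). Neither was called at 4 h alone (adjusted p = 0.195 and 0.0612), and PCDHB16 was not called without the 3 libraries that stood apart.

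**Figure D2:**
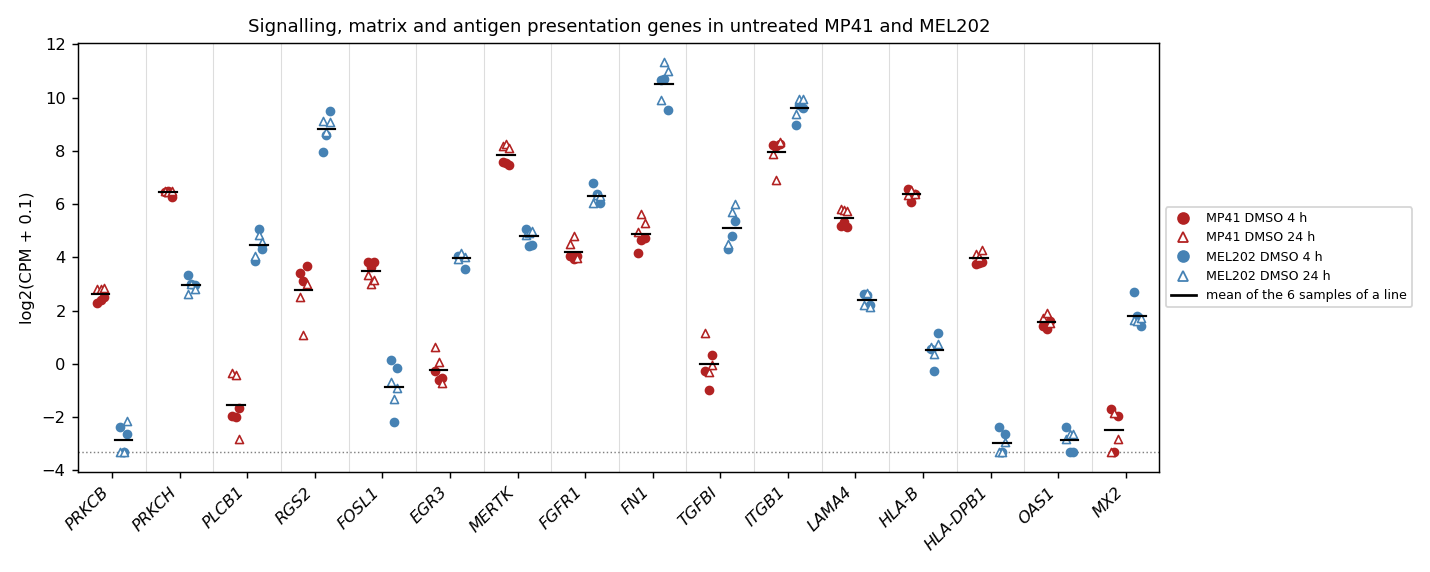
Levels of 16 genes of signalling, matrix and antigen presentation as log2(CPM + 0.1) in the 12 untreated samples, with filled circles for 4 h, open triangles for 24 h, a bar for the mean of the 6 log values of a line and a dotted line for 0 CPM. FN1, TGFBI, PLCB1, RGS2 and MX2 are lower in all 6 MP41 samples, and PRKCB, MERTK, HLA-B, HLA-DPB1 and OAS1 are higher in all 6.

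Genes of antigen presentation were mostly higher in MP41, with exceptions in each class. HLA class I molecules show peptides from inside the cell to CD8+ T cells. Of this class and its machinery, 11 of the 18 tested members were called higher in MP41 (61.1%), 4 lower (22.2%) and 3 in neither direction, with a median log2 difference of 0.84. The values for all genes were 24.6% and 24.8%. HLA-B ranged from 66.6 to 95.8 CPM (median 82.4) in MP41 and from 0.722 to 2.12 CPM (median 1.404) in MEL202 (log2 difference 5.88, SE 0.24, adjusted p = 7.43e-11), 58.96-fold higher in MP41. PSMB8 and PSMB9, subunits of the immunoproteasome, were 30.1-fold and 14.4-fold higher (log2 differences 4.91, adjusted p = 2.5e-06, and 3.85, adjusted p = 1.83e-05). HLA-C and the peptide transporter TAP1, named after their values were seen, had log2 differences of 3.50 and 3.43 (adjusted p = 6.76e-09 and 6.21e-09). HLA-G had 2 reads in the 6 MEL202 libraries and 58 in MP41, a ratio of 31.4 (counting interval 8.31 to 266). HLA genes are near copies of each other and differ in sequence between people. Reads that mapped to several places, 2.83% to 4.55% of a library, were counted to no gene. The 4 lower members were ERAP2, a peptide trimming enzyme (from 1.11 to 3.605 CPM (median 2.53) in MP41 and from 10.8 to 19.998 CPM (median 17.5) in MEL202; log2 difference -2.74, SE 0.26, adjusted p = 6e-07), PDIA3 (log2 difference -1.07, adjusted p = 0.00447), B2M, the light chain of class I (-0.74, adjusted p = 0.0368), and HLA-F (-0.72, adjusted p = 0.0153). PDIA3 was not called at 4 h alone (adjusted p = 0.141). The B2M call was lost without MEL202 4 h replicate 3, MEL202 24 h replicate 1 or 3, MP41 4 h replicate 1, 2 or 3 or MP41 24 h replicate 1 or 2 (adjusted p from 0.0527 to 0.121), and with library size alone, at 4 h alone and at 24 h alone. The HLA-F call was lost without MP41 4 h replicate 3 (adjusted p = 0.05001), and with the summed stranded columns and at 24 h alone; with those columns its log2 difference was 0.02.

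HLA class II molecules present to CD4+ T cells. The 13 listed genes of this class and its machinery summed from 58.1 to 81.7 CPM in MP41 and from 5.1 to 10.2 in MEL202. Of the 11 members tested, 9 were higher in MP41 (81.8%) and 1 lower (9.1%), with a median log2 difference of 2.96. HLA-DPB1 ranged from 13.2 to 19.2 CPM (median 15.2) in MP41 and from 0 to 0.0945 CPM (median 0.0156) in MEL202 (log2 difference 8.72, SE 0.38, adjusted p = 1.7e-10), and HLA-DPA1, its partner chain, ranged from 10.1 to 15.4 CPM (median 12.4) in MP41 and from 0 to 0.236 CPM (median 0.0355) in MEL202 (log2 difference 7.35, SE 0.42, adjusted p = 2.28e-09). HLA-DOA had 642 reads in MP41 and 3 in MEL202, a ratio of 232 (counting interval 78.98 to 1127). The DR alpha chain, HLA-DRA, was not tested, with 13 reads in MP41 and 17 in MEL202. CIITA, the master activator of class II genes, was the lower member and ranged from 0.05295 to 0.586 CPM (median 0.435) in MP41 and from 0.606 to 1.98 CPM (median 1.33) in MEL202 (log2 difference -1.84, SE 0.42, adjusted p = 0.00182). Of interferon-stimulated genes, 13 of the 24 tested members were called higher in MP41 (54.2%), 4 lower (16.7%) and 7 in neither direction, with a median log2 difference of 0.68. The background was 24.6% higher and 24.8% lower. OAS1, a sensor of double-stranded RNA, ranged from 2.3998 to 3.69 CPM (median 2.85) in MP41 and from 0 to 0.0945 CPM (median 0.04995) in MEL202 (log2 difference 5.83, SE 0.40, adjusted p = 1.71e-08), IFIH1, the RNA sensor MDA5, was 8.75-fold higher (log2 difference 3.13, adjusted p = 3.22e-08) and BST2, tetherin, 8.57-fold higher (3.10, adjusted p = 0.000244). MX2, a dynamin-like antiviral protein, ranged from 0 to 0.212 CPM (median 0.101) in MP41 and from 2.61 to 6.43 CPM (median 3.099) in MEL202 (log2 difference -5.18, SE 0.50, adjusted p = 6.3e-07), 36.1-fold lower. The other lower members were IFI44 (log2 difference -1.43, adjusted p = 0.0344), IFIT5 (-0.94, adjusted p = 0.0204) and IFIT3 (-0.80, adjusted p = 0.000784). The IFI44 call was lost without MEL202 4 h replicate 3, MEL202 24 h replicate 1 or 3, MP41 4 h replicate 2 or MP41 24 h replicate 1, 2 or 3 (adjusted p from 0.0546 to 0.0944), and with library size alone, at 4 h alone and without the 3 libraries that stood apart. The IFIT5 call was lost without MP41 4 h replicate 2 or MP41 24 h replicate 1 (adjusted p from 0.0556 to 0.0622), and at 4 h alone, and that of IFIT3 at 24 h alone (adjusted p = 0.0533). The interferon-stimulated genes were thus not of 1 direction.

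The HOX genes, which keep positional identity along the body axis, were on in different combinations in the lines. Of the 39 HOX genes, 15 of the 28 tested members were called higher in MP41 (53.6%), 7 lower (25%) and 6 in neither direction, with a median log2 difference of 0.56. HOXB4 had 0 reads in MEL202 and ranged from 18.4 to 31.6 CPM in MP41, at least 149-fold higher. HOXD4 also had 0 reads in MEL202 and ranged from 1.23 to 2.58 CPM in MP41, at least 10.97-fold higher. HOXB2 had 867 reads against 3, a ratio of 313 (counting interval 107 to 1521), and HOXD3 was 30.9-fold higher (log2 difference 4.95, adjusted p = 4.62e-06). HOXA11 had 0 reads in MP41 and ranged from 9.41 to 19.4 CPM in MEL202, at least 92.8-fold lower, and HOXC11, also with 0 reads in MP41, was at least 35.01-fold lower. HOXA6 had 0 reads in MP41 too and was at least 4.32-fold lower, and HOXA10 ranged from 0 to 0.293 CPM (median 0.0458) in MP41 and from 1.32 to 3.82 CPM (median 2.896) in MEL202 (log2 difference -5.26, adjusted p = 2.14e-06). Medians of gene lists were the same with such genes set at their bounds. By cluster, 1 of the 8 tested HOXA genes was called higher and 5 lower, 4 of 6 HOXB genes higher and 1 lower, 4 of 7 HOXC genes higher and 1 lower, and 6 of 7 HOXD genes higher and 0 lower, beside 24.6% higher and 24.8% lower among all genes. Neighbours in a cluster overlap in the annotation, and a read that fits 2 genes was counted to neither. Of cancer-testis antigens, germline proteins that tumours can express, 10 of 38 listed were tested. Of these, 8 were higher (80%) and 2 lower (20%), with a median log2 difference of 5.79. Of the 37 matched, 27 were not tested, and 20 had at most 3 reads in every library. A member on in 1 line alone passes the filter on reads, so this share and median follow in part from that filter. Summed over the list, levels ran from 212.4 to 309.7 CPM in MP41 and from 310.5 to 396.5 in MEL202, most of it PRAME. MAGEA6 ranged from 22.8 to 28.5 CPM (median 26.9) in MP41 and from 0 to 0.142 CPM (median 0) in MEL202 (log2 difference 8.98, SE 0.42, adjusted p = 3.24e-10), and MAGEA3 ranged from 7.16 to 11.5 CPM (median 9.15) in MP41 and from 0 to 0.189 CPM (median 0) in MEL202 (log2 difference 7.93, SE 0.54, adjusted p = 1.46e-08). MAGEA3 and MAGEA6 are near-identical copies, as are the GAGE genes, so their separate levels are uncertain. XAGE2 had 329 reads in MP41 and 2 in MEL202, a ratio of 178 (counting interval 48.9 to 1478). The lower members were PRAME and SSX1 (log2 difference -0.70, adjusted p = 0.0301). The SSX1 call was lost without MEL202 4 h replicate 3, MEL202 24 h replicate 1, MP41 4 h replicate 1 or 3 or MP41 24 h replicate 1 or 2 (adjusted p from 0.0506 to 0.0949), and with library size alone, with limma-voom, at 4 h alone, at 24 h alone and without the 3 libraries that stood apart.

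The shares of cell cycle genes are read beside the 24.6% of all genes called higher and the 24.8% called lower. Of cyclins D and E, CDKs, CDK inhibitors, the RB family and E2F factors, 2 of the 20 tested members were called higher in MP41 (10%), 5 lower (25%) and 13 in neither direction, with a median log2 difference of -0.004. The lower members were CDKN2A, which encodes p16 and ARF (from 19.2 to 30.8 CPM (median 21.9) in MP41 and from 59.9 to 138 CPM (median 99.2) in MEL202; log2 difference -2.01, SE 0.23, adjusted p = 4.34e-06), CDKN2B, p15 (log2 difference -1.62, adjusted p = 2.1e-06), RBL2, a pocket protein on 16q (-1.38, adjusted p = 2.34e-05), CDKN1C, p57 (-0.76, adjusted p = 0.0423), and CCND3 (-0.67, adjusted p = 0.00614), the last named after its value was seen. The CDKN1C call was lost without MEL202 4 h replicate 2 or 3, MEL202 24 h replicate 3, MP41 4 h replicate 1, 2 or 3 or MP41 24 h replicate 1 or 3 (adjusted p from 0.0507 to 0.0994), and with library size alone and at 24 h alone. Higher were E2F2 (log2 difference 1.56, adjusted p = 8.84e-06) and E2F1 (0.58, adjusted p = 0.0292). The E2F1 call was lost without MEL202 4 h replicate 2, MEL202 24 h replicate 1, 2 or 3 or MP41 24 h replicate 1 or 2 (adjusted p from 0.0507 to 0.0811), and at 4 h alone and without the 3 libraries that stood apart. Without MEL202 4 h replicate 3, 4 genes of this list were called higher in place of 2. CDKN1A, p21, ranged from 255 to 378 CPM (median 338) in MP41 and from 279.6 to 405 CPM (median 335) in MEL202 and was not called (log2 difference -0.05, adjusted p = 0.802). Of genes of DNA replication and mitosis, 10 of the 36 tested members were called higher in MP41 (27.8%), 6 lower (16.7%) and 20 in neither direction, with a median log2 difference of 0.26. MCM4 was 3.21-fold lower (log2 difference -1.68, adjusted p = 7.68e-08) and MCM3 2.21-fold lower (-1.15, adjusted p = 7.53e-06), both subunits of the replicative helicase, while RRM2, a subunit of ribonucleotide reductase, was 2.55-fold higher (1.35, adjusted p = 3.93e-06).

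Of p53 targets, 10 of the 24 tested members were called higher in MP41 (41.7%), 4 lower (16.7%) and 10 in neither direction, with a median log2 difference of 0.01. The background shares were 24.6% and 24.8%. MDM2, the ligase that degrades p53, was 3.203-fold higher in MP41 (log2 difference 1.68, adjusted p = 1.16e-05) and GDF15, a stress cytokine, 3.33-fold higher (1.74, adjusted p = 5.68e-05). TP53INP1, a p53-induced regulator of cell death, ranged from 0 to 0.496 CPM (median 0.106) in MP41 and from 84.2 to 256 CPM (median 177) in MEL202 (log2 difference -10.10, SE 0.55, adjusted p = 1.31e-09). The other lower members were BBC3, the killer protein PUMA (-2.17, adjusted p = 1.17e-06), POLH (-0.85, adjusted p = 0.00059) and the death receptor TNFRSF10B (-0.68, adjusted p = 0.000675). Without MEL202 4 h replicate 1, 7 p53 targets were called lower in place of 4. Of the BCL2 family, which sets the threshold for cell death, 3 of the 15 tested members were called higher in MP41 (20%), 8 lower (53.3%) and 4 in neither direction, with a median log2 difference of -0.56. BID, which links death receptors to mitochondria, ranged from 0.688 to 1.79 CPM (median 1.16) in MP41 and from 27.05 to 52.4 CPM (median 36.9) in MEL202 (log2 difference -5.02, SE 0.26, adjusted p = 8.29e-10), 32.4-fold lower in MP41 without overlap. BCL2 itself was 3.59-fold lower (log2 difference -1.84, adjusted p = 9.59e-07) and BOK 3.65-fold lower (-1.87, adjusted p = 2.4e-07). The higher members were BCL2L2, BCL-W (0.86, adjusted p = 6.97e-05), BCL2L11, BIM (0.62, adjusted p = 0.0207), and BAK1 (0.51, adjusted p = 0.0228). The BCL2L11 call was lost with no filter on low counts and at 24 h alone. The BAK1 call was lost without MEL202 4 h replicate 2 or MEL202 24 h replicate 1 or 3 (adjusted p from 0.0556 to 0.0745), and with no filter on low counts, at 4 h alone and without the 3 libraries that stood apart.

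The BAF complexes are the targets of FHT-1015, and 3 of their subunits were called at least 2-fold apart before treatment. Of the 28 tested, 1 was higher and 2 were lower by this rule. Both are smaller shares than the 14.7% higher and 15.5% lower of all genes. Of the subunits, 4 of the 28 tested members were called higher in MP41 (14.3%), 11 lower (39.3%) and 13 in neither direction, with a median log2 difference of -0.11. In all genes the shares were 24.6% and 24.8%. SMARCA4, also known as BRG1 (chr19:10960825-11079426), ranged from 419 to 913 CPM (median 460.0) in MP41 and from 297 to 581 CPM (median 408) in MEL202 and was not called (log2 difference 0.39, SE 0.22, adjusted p = 0.165). Its log2 difference was -0.01 at 4 h alone and 0.78 at 24 h alone (adjusted p = 0.0369), and over both times it was called without MEL202 4 h replicate 1 (adjusted p = 0.0427) and with GC and length offsets (0.0182). SMARCA2, also known as BRM (chr9:1980290-2193624), ranged from 48.9 to 56.6 CPM (median 53.2) in MP41 and from 55.8 to 83.4 CPM (median 71.2) in MEL202 (log2 difference -0.41, SE 0.14, adjusted p = 0.0271). The SMARCA2 call was lost without MEL202 4 h replicate 2, MEL202 24 h replicate 2 or 3, MP41 4 h replicate 1, 2 or 3 or MP41 24 h replicate 1 or 3 (adjusted p from 0.0557 to 0.106), and with library size alone, with no filter on low counts, at 4 h alone, at 24 h alone and without the 3 libraries that stood apart. The lines overlapped for both ATPases. With MP41 4 h replicate 2 or 3 or MP41 24 h replicate 3 left out, 7 subunits in place of 11 were called lower. DPF3 on 14q, a reader of histone marks, ranged from 1.07 to 2.89 CPM (median 1.74) in MP41 and from 0 to 0.241 CPM (median 0.0666) in MEL202 (log2 difference 4.38, SE 0.54, adjusted p = 7.95e-06), 20.8-fold higher in MP41. The other higher members were BRD9 (log2 difference 0.70, adjusted p = 0.000791), DPF2 (0.39, adjusted p = 0.0373) and SMARCD1 (0.38, adjusted p = 0.0388). The DPF2 call was lost without MEL202 4 h replicate 2 or 3, MEL202 24 h replicate 1, 2 or 3, MP41 4 h replicate 2 or MP41 24 h replicate 1 or 2 (adjusted p from 0.0508 to 0.0834), and with relative log expression normalisation, with no filter on low counts, with limma-voom, with the replicate block, at 4 h alone, at 24 h alone and without the 3 libraries that stood apart. The SMARCD1 call was lost without MEL202 4 h replicate 2 or 3, MEL202 24 h replicate 1, 2 or 3 or MP41 24 h replicate 1 or 2 (adjusted p from 0.0544 to 0.101), and with relative log expression normalisation, with no filter on low counts, at 4 h alone and at 24 h alone. BICRAL, a subunit of the non-canonical complex, was 3.401-fold lower (log2 difference -1.77, adjusted p = 6.79e-06), BRD7 on 16q 2.06-fold lower (-1.05, adjusted p = 3.55e-05) and SMARCC1, a core scaffold, 1.83-fold lower (-0.87, adjusted p = 0.00153).

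Of glycolysis genes, 8 of the 22 tested members were called higher in MP41 (36.4%), 2 lower (9.1%) and 12 in neither direction, with a median log2 difference of 0.26. Against these stand 24.6% and 24.8% of all genes. ALDOC, an aldolase, ranged from 20.5 to 54.1 CPM (median 26.7) in MP41 and from 0.473 to 1.28 CPM (median 0.781) in MEL202 (log2 difference 5.17, SE 0.31, adjusted p = 3.15e-09), and ENO2, an enolase of neural cells, ranged from 0.318 to 0.762 CPM (median 0.412) in MP41 and from 23.5 to 32.7 CPM (median 26.99) in MEL202 (log2 difference -5.90, SE 0.24, adjusted p = 7.43e-11). SLC2A1, the glucose transporter GLUT1, was 3.801-fold higher in MP41 (log2 difference 1.93, adjusted p = 1.02e-06), and SLC16A1, a lactate transporter, 1.45-fold lower (-0.54, adjusted p = 0.00782; 0.138 at 4 h alone). ALDOC and ENO2 did not overlap between the lines. Without MP41 24 h replicate 2, 4 glycolysis genes were called lower in place of 2. Of the 13 mitochondrially encoded proteins, 7 were called lower in MP41 (53.8%, beside 24.8% of all genes) and 0 higher, and the median log2 difference was -0.90. Without MP41 4 h replicate 3, 4 were called lower. MT-CYB ranged from 782 to 1811 CPM (median 1218) in MP41 and from 1857 to 3971 CPM (median 2936) in MEL202 (log2 difference -1.14, SE 0.23, adjusted p = 0.000732). The share of mitochondrial reads given above moves with these genes, and its part in the result was not tested.

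The metallothioneins tested, small proteins that bind zinc and copper, were lower in MP41, and the promoters of 2 of them are shown because of their metal response elements. Of 10 listed, 3 were tested and all 3 were lower: MT1E ranged from 0 to 0.149 CPM (median 0.0474) in MP41 and from 20.3 to 66.7 CPM (median 31.4) in MEL202 (log2 difference -9.30, SE 0.53, adjusted p = 2.14e-09), MT1X ranged from 0 to 0.2096 CPM (median 0.101) in MP41 and from 0.3598 to 1.33 CPM (median 0.8601) in MEL202 (log2 difference -2.90, SE 0.53, adjusted p = 0.000311) and MT2A ranged from 13.4 to 26.7 CPM (median 19.5) in MP41 and from 56.9 to 175 CPM (median 97.03) in MEL202 (log2 difference -2.43, SE 0.29, adjusted p = 5.59e-06). The lines did not overlap for any of the 3, which lie on 16q. Of all genes 24.8% were called lower, and of the 324 genes tested on 16q 186 were (57.4%). Among the listed members not tested, 6 had 0 reads in both lines. Capitals mark matches to the core of the metal response element, TGCACNC or TGCGCNC, and on the other strand GNGTGCA or GNGCGCA, in the 250 bases before the start (RefSeq, GRCh38.p14). The MT1X window, chr16:56682220-56682469 on the plus strand, holds 4 matches and the MT2A window, chr16:56608334-56608583 on the plus strand, holds 7. MT1E was not matched in the table. Such a match was present in 24.8% of all windows (8669 of 34943).
MT1X: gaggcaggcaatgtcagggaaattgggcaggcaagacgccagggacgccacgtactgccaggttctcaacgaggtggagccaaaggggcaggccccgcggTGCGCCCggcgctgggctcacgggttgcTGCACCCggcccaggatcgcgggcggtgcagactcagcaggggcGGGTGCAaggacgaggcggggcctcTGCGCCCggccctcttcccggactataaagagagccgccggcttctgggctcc
MT2A: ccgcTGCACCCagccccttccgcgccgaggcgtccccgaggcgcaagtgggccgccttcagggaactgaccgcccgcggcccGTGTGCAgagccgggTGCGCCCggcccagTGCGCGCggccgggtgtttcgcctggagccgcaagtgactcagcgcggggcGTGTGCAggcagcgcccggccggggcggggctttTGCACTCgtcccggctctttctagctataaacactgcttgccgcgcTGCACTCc

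**Figure D3:**
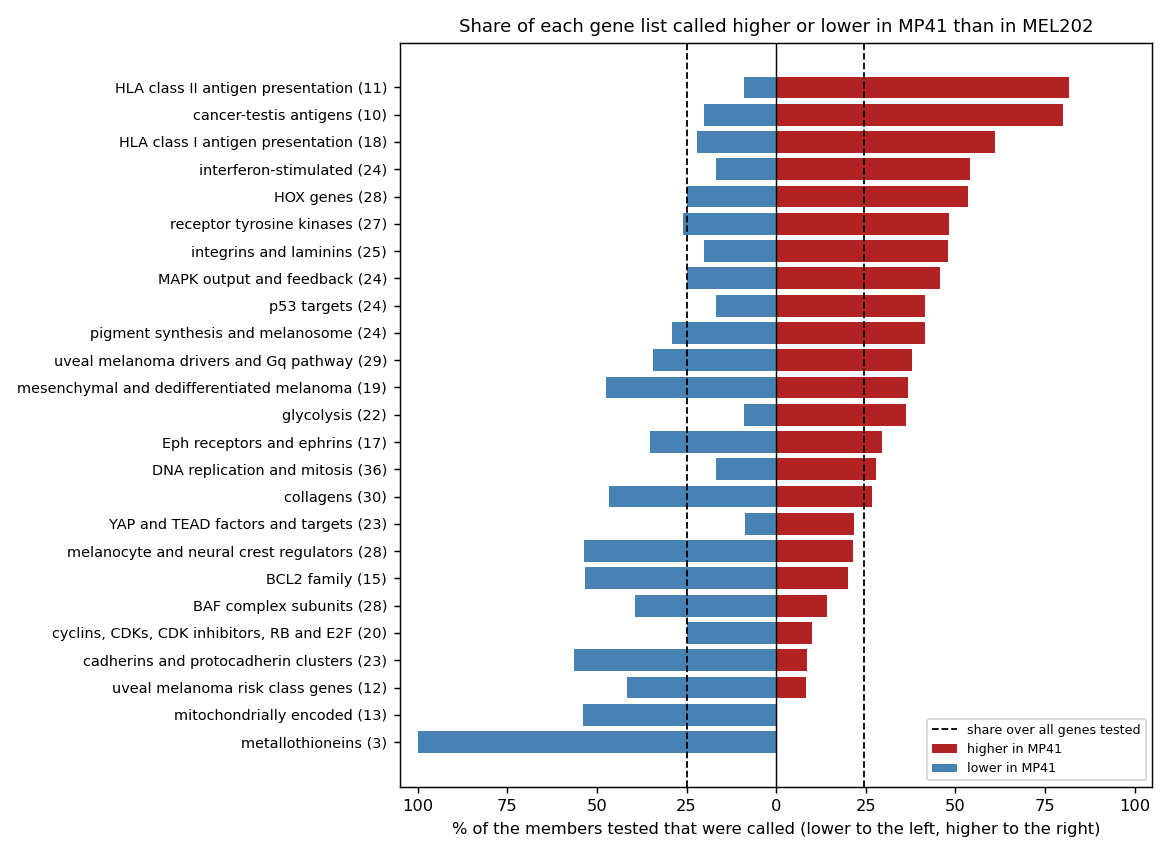
Share of the tested members of each gene list other than the cell type markers called higher (red, to the right) or lower (blue, to the left) in MP41, in percent, with dashed lines at the 24.6% and 24.8% of all 16048 genes. Cancer-testis antigens, HLA class II and HLA class I genes have the longest bars to the right of the lists drawn, and metallothioneins, cadherins and mitochondrially encoded genes the longest to the left. Only 10 of 38 listed cancer-testis antigens and 3 of 10 metallothioneins were tested.

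The widest differences were genes with no or few reads in 1 line and at least 10 CPM in the other. SLC5A4, a member of the sodium glucose transporter family (chr22:32218476-32255341), had 0 reads in MEL202 and ranged from 22.5 to 108 CPM in MP41, at least 404-fold higher. With 0 reads in MEL202, ZFR2 was at least 236-fold higher, DUSP23, a small phosphatase, at least 192-fold higher, OLIG2, a transcription factor of glia, at least 149.9-fold higher, RIOX1, an oxygenase on 14q, at least 103-fold higher and CLDN14, a tight junction protein, at least 93.3-fold higher. NEFH, the heavy neurofilament chain, ranged from 324 to 425 CPM (median 361) in MP41 and from 0.156 to 0.473 CPM (median 0.211) in MEL202 (log2 difference 10.43, SE 0.27, adjusted p = 2.51e-12). MAT1A, the methionine adenosyltransferase of liver, ranged from 60.9 to 124 CPM (median 73.97) in MP41 and from 0 to 0.1597 CPM (median 0.02998) in MEL202 (log2 difference 10.43, SE 0.42, adjusted p = 7.77e-11). TRPM2, a calcium channel, had 6847 reads against 2, a ratio of 3709 (counting interval 1026 to 30634), and FAM178B 7737 against 2, a ratio of 4191 (counting interval 1159.9 to 34615). PLA1A, a phospholipase, had a ratio of 1506 (counting interval 515 to 7304).

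On the other side, HSPA2, a heat shock protein of germ cells, ranged from 0 to 0.248 CPM (median 0.0532) in MP41 and from 551 to 665 CPM (median 645) in MEL202 (log2 difference -12.63, SE 0.42, adjusted p = 1.69e-11), with 11 reads in MP41 and 80948 in MEL202. RARRES2, the chemoattractant chemerin, ranged from 0 to 0.107 CPM (median 0.0674) in MP41 and from 119 to 341 CPM (median 209.9) in MEL202 (log2 difference -11.50, SE 0.44, adjusted p = 4.75e-11). With 0 reads in MP41, RASL10B was at least 198-fold lower, PCDH18, a protocadherin, at least 182-fold lower, EIF5A2, a translation factor, at least 139-fold lower, LCMT2 at least 135-fold lower and B3GALNT1, a glycosyltransferase, at least 110.4-fold lower. MEST, an imprinted gene, had 1 read in MP41 against 5550, a ratio of 5122 (counting interval 919 to 202364), DDIT4L 2 against 10928, a ratio of 5043 (counting interval 1396 to 41648), and SCARA3 1 against 16890, a ratio of 15589 (counting interval 2798 to 615769). Intervals cover counting error only. In all, 123 called genes had 0 reads in the 6 MP41 libraries and 80 had 0 in the 6 MEL202 libraries. Of genes at least 2-fold apart, those that took most reads were lower in MP41: EEF1A1, a translation factor, ranged from 6094 to 7012 CPM (median 6569) in MP41 and from 12339 to 19818 CPM (median 13805) in MEL202 (log2 difference -1.16, SE 0.14, adjusted p = 7.5e-06), and HSP90AB1, a constitutive chaperone, ranged from 1693 to 2129.6 CPM (median 2038) in MP41 and from 4025 to 4911 CPM (median 4438) in MEL202 (log2 difference -1.16, SE 0.12, adjusted p = 1.3e-06). MT-RNR2, MT-ND4 (adjusted p = 0.0896 at 4 h alone) and MT-CYB were the other 3, and MT-RNR2, a mitochondrial ribosomal RNA, was 3.75-fold lower (log2 difference -1.91, adjusted p = 2e-05).

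Markers of the labelled cell type were present in every sample, and those of immune and epithelial cells were low. The 9 melanocyte markers summed from 12211 to 16251 CPM in MP41 and from 8137 to 10153 in MEL202. Immune markers summed from 2.25 to 3.34 CPM in MP41 and from 2.22 to 3.87 in MEL202, with CD3E and CD3D at 0 reads in all 12 libraries and 8 of the 9 markers under 1 CPM in both lines. PTPRC, the leukocyte antigen CD45, was called lower in MP41 (log2 difference -1.11, adjusted p = 0.0288), and the call was lost without MEL202 4 h replicate 2, MEL202 24 h replicate 2, MP41 4 h replicate 2 or 3 or MP41 24 h replicate 1 (adjusted p from 0.0606 to 0.085), and with no filter on low counts, at 4 h alone, at 24 h alone and without the 3 libraries that stood apart. Fibroblast markers summed from 20.6 to 44.3 CPM in MP41 and from 7.196 to 9.11 in MEL202, with 4 of 8 under 1 CPM in both lines. COL1A1, LUM (log2 difference 2.67, adjusted p = 6.17e-06) and PDGFRB (1.13, adjusted p = 0.024) were higher and COL3A1 was lower, and the PDGFRB call was lost without MEL202 24 h replicate 1, MP41 4 h replicate 2 or MP41 24 h replicate 1 (adjusted p from 0.0563 to 0.0621), and with limma-voom, at 4 h alone, at 24 h alone and without the 3 libraries that stood apart. Endothelial markers summed from 12.4 to 29.7 CPM in MP41 and from 47.9 to 117 in MEL202; VWF (log2 difference 2.65, adjusted p = 0.00433) and CLDN5 (2.50, adjusted p = 0.000217) were higher, KDR (-1.97, adjusted p = 0.00929) and EMCN (-2.21, adjusted p = 3.62e-06) lower. CDH5, which defines these cells, had 2 reads in MP41 and 0 in MEL202. VWF was not called at 4 h alone or without the 3 libraries that stood apart, and KDR was not called at either time alone. Epithelial markers summed from 5.904 to 11.2 CPM in MP41 and from 2.93 to 6.56 in MEL202, and the called member was CLDN4 (log2 difference 1.93, adjusted p = 0.0027; 0.292 at 4 h alone). Schwann cell markers, a kindred neural crest lineage, summed from 402 to 599 CPM in MP41 and from 429 to 752 in MEL202. Of these PMP2, a myelin protein, ranged from 0.879 to 6.995 CPM (median 4.73) in MP41 and from 0.0473 to 0.2796 CPM (median 0.0768) in MEL202 (log2 difference 5.14, SE 0.56, adjusted p = 2.32e-06), EGR2, the myelin regulator, was 5.67-fold higher (log2 difference 2.50, adjusted p = 1.99e-05), S100B was higher (1.30, adjusted p = 0.00308; 0.194 at 4 h alone) and CDH19 lower (-1.87, adjusted p = 0.00306; 0.182 at 4 h alone). With 1 library left out, the called members of these marker lists changed by at most 1 in each direction. The part of other cell types in the differences was not tested.

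The differences were not spread evenly over the chromosomes. On the short arm of chromosome 8, 179 of 222 genes tested (80.6%) were called lower in MP41 and 11 (4.95%) higher, beside 24.8% and 24.6% of all genes. The median log2 difference on this arm, relative to the median of all genes, was -1.76. Taken sample by sample as log2(CPM + 0.5), the median of the arm lay between -1.44 and -1.30 in the 6 MP41 samples and between -0.03 and 0.05 in the 6 MEL202 samples, relative to the mean of MEL202. The arm thus stood apart in each MP41 sample, with no overlap. The long arm of the same chromosome had a median of -0.06. Named genes on 8p were EGR3, DUSP4, LOXL2, FGFR1, SCARA3 and TNFRSF10B.

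Medians relative to all genes were -0.69 on 16q (186 of 324 genes lower), -0.66 on 19q (328 of 619 lower) and -0.31 on 10p (48 of 135 lower). On the other side, the median was 0.58 on 14q (253 of 522 genes higher), 0.56 on 11q (257 of 574 higher), 0.34 on 22q, 0.32 on 19p and 0.31 on 2p. On 22q, 19p, 2p and 10p the samples of the lines overlapped. The 3 libraries that stood apart were the highest of their lines on 22q, 19p, 16q and 19q and the lowest on 2p and 10p. On 19p MP41 24 h replicates 1 and 2 lay at 0.415 and 0.767, and the other MP41 samples between 0.171 and 0.218. The medians of arms were not taken without these libraries. In single samples, 14q lay between 0.43 and 0.59 in MP41 and between -0.03 and 0.02 in MEL202, and 11q between 0.39 and 0.66 against -0.05 and 0.10. On 16q the MP41 samples lay between -0.71 and -0.28 and the MEL202 samples between -0.06 and 0.17, and on 19q between -0.71 and -0.25 against -0.08 and 0.13, so these 4 arms did not overlap between the lines either. TYR, RAB38, FOSL1 and AMOTL1 on 11q and PRKCH, DPF3, BCL2L2 and RIOX1 on 14q were higher, while SERPINH1 and PLCB3 on 11q and HSPA2 on 14q were lower, against the median of their arms. CDH3, RBL2, BRD7 and the 3 metallothioneins on 16q and BBC3 and TEAD2 on 19q were lower, and FOXF1 on 16q was higher. The number of copies of each arm in these cells was not measured in these data, and its part in the result was not tested.

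**Figure D4:**
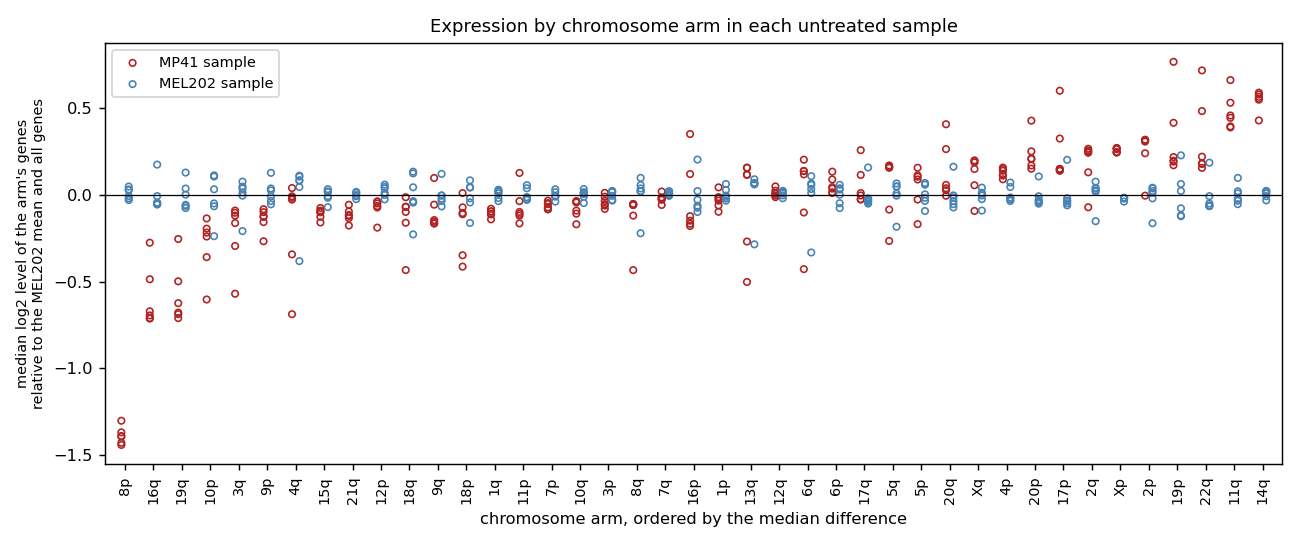
Median level of the tested genes of each chromosome arm in each sample, as log2(CPM + 0.5) relative to the mean of the MEL202 samples and to all genes. The 6 MP41 samples lie between -1.44 and -1.30 on 8p, with the MEL202 samples between -0.03 and 0.05.

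Between the times in DMSO fewer genes were called than between the lines. With edgeR, 0 genes were called between 24 h and 4 h (0.0%), where 683 had an unadjusted p under 0.05. DESeq2 called 16 and limma-voom 80. For the difference of the line effect between the times 0 genes were called (0.0%), with 1861 at an unadjusted p under 0.05. DESeq2 called 2 and limma-voom 1569. Without MP41 24 h replicate 3 edgeR called 413 genes for that difference, and with the other libraries left out in turn it called 0. At 4 h alone 5802 genes differed between the lines and at 24 h alone 6837, and 4319 of them were called at both times in the same direction. The 1 gene called in opposite directions at the 2 times, named after its value was seen, was PDZD7, a scaffold protein of hair cells and photoreceptors (log2 difference -0.94 at 4 h, adjusted p = 0.0269; 0.79 at 24 h, adjusted p = 0.0411). The 3 MP41 samples held 1.006, 1.68 and 1.07 CPM of PDZD7 at 4 h and 3.72, 3.63 and 3.23 at 24 h, and the MEL202 samples between 1.80 and 2.73 over both times. The difference between the times was not called for it (adjusted p = 0.418).

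**Figure D5:**
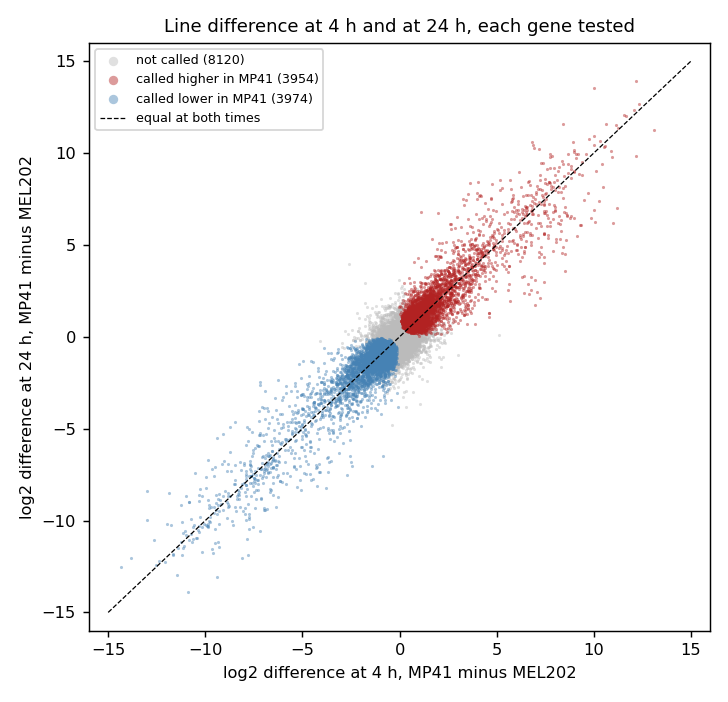
Log2 difference between MP41 and MEL202 at 4 h (horizontal) and at 24 h (vertical) for each of the 16048 genes tested, coloured by the call over both times, with 8120 genes not called. Called genes lie along the diagonal.

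The third line of the series, 92-1, gave a point of reference, with 6 DMSO samples from its own FHT-1015 experiment. The median absolute log2 difference over the genes tested, on the log2(CPM + 0.5) scale, was 0.629 between MP41 and 92-1, 0.443 between MEL202 and 92-1 and 0.522 between MP41 and MEL202. These genes had passed the filter on MP41 and MEL202 samples, so genes with reads in 92-1 alone were left out. The distances to 92-1 are therefore not on equal terms with that between MP41 and MEL202. Of the 461 genes at least 16-fold higher in MP41, 92-1 lay nearer to MP41 in 98 (21.3%), and of the 467 at least 16-fold lower it lay nearer to MP41 in 222 (47.5%). KIT was from 0 to 0.311 CPM in 92-1, on the side of MEL202, and IRF4 from 0.555 to 2.36 CPM. HLA-B was from 8.45 to 13.1 CPM, between the lines. MEST was from 0 to 0.3697 CPM, on the side of MP41. On 8p the median difference was -0.997 for MP41 minus 92-1 and 0.305 for MEL202 minus 92-1, and on 16q -0.665 and -0.068. Comparisons of 2 lines with the same 92-1 samples share those samples.

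Some of the genes named share bases with a neighbour in the annotation, and the counting did not use strand, so a read that fitted both was counted to neither and their levels are less certain. These were ALDOC, B3GALNT1, BCL2L2, BRD7, BRD9, CCND1, CDKN2A, CDKN2B, CIITA, COL18A1, ENO2, ERBB3, FGFR1, FXR1, HLA-B, HLA-DPA1, HLA-DPB1, HOXA10, HOXA6, HOXB4, HOXD3, HOXD4, HTR2B, IFIT3, ITGA1, ITGB3, ITGB4, LAMA4, LOXL2, MDM2, MEST, MLANA, MT-ND4, PCDHB15, PCDHGB5, PCDHGB6, PCDHGB7, PDIA3, PLCB2, PMEL, POLH, PRKCH, PSMB8, PSMB9, RASL10B, RBL2, RHOA, RIOX1, SOX10, TEAD2, THBS1, TNFRSF10B, TP53INP1 and VGLL4.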

How the data were processed

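RNA was measured in 12 DMSO samples, 6 of MP41 and 6 of MEL202. The authors deposited unnormalised counts of reads, 1 file a sample, laid out as STAR writes them. Its column without strand served here, as reads of the strands were even (49.8% to 50.1% on the first). The build is hg38 and limma was among the tools, per the submitters' processing notes; the aligner's settings and the annotation are not given in the sources used here. Per the file headers and rows, 58870 genes and 92 spike-in controls are listed, and the controls, with 0 reads, were left out. Symbols and positions came from GENCODE 29 (GRCh38) by unversioned identifier for 58597 genes. Reads fitting several genes (9.35% to 11.8% of a library) or places were counted to no gene.

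Counts were fitted with edgeR 4.0.16 in R 4.3.3: genes kept by filterByExpr (16048), TMM scaling, quasi-likelihood F-tests with line and time as terms, and Benjamini-Hochberg adjustment over all genes tested, two-sided, with calls at an adjusted p under 0.05. Standard errors are the log2 difference divided by the square root of F. A line with 0 reads was set at a floor of 3 reads per library for a bound, and with 1 to 3 reads the ratio of scaled reads is given with an exact 95% interval. Levels are TMM-scaled CPM. The labels call the samples biological replicates without saying whether they were separate cultures, so p-values measure the spread between these samples, which may be technical. Over all 66 pairs of libraries the chi-square per degree of freedom was at least 6.22, so none agreed within counting noise.

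On simulated counts for these 12 libraries (16048 genes, 50 of them changed at each fold), 8% of genes changed 1.5-fold were recovered, 68% of those changed 2-fold, 98% of those changed 4-fold and 100% of those changed 8-fold; 8.05% of calls were false. Far fewer genes were changed there than were called in the data, so these shares do not carry over to the fit reported.

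The members, the 31 gene lists and the naming rule were chosen with earlier results of these data known. Named were 8 genes fixed by name (SMARCA4, SMARCA2, MITF, SOX10, GNAQ, GNA11, BAP1 and SF3B1), the 12 largest called protein-coding genes in each direction with at least 10 CPM and no overlap of the lines (leaving out the Y chromosome and XIST), up to 4 called members of each list in each direction with the not-called member of most CPM, and the 5 called genes of most CPM at least 2-fold apart. This gave 240 genes, not all of which are printed. The listed symbol BAGE was not matched. Alternatives changed the scaling, the filter, the test (DESeq2 1.42.0, limma 3.58.1 voom), the counted column, the samples fitted, the replicate block, the time and each library in turn. The arms' medians and 92-1 used log2(CPM + 0.5). The other 36 samples were not used in the main fit.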

Additional observations from a re-analysis of the deposited data

How the results depend on the processing

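The counts of genes higher and lower in MP41 kept within 1.5 times of 3954 and 3974 under the 14 alternatives, from 2737 higher at 4 h alone to 5047 with offsets for GC content and length, and from 3065 lower at 4 h alone to 5291 with the 36 samples of 3 lines. With 1 library left out in turn the counts ran from 3627 to 4189 higher and from 3439 to 4407 lower, and for genes at least 2-fold apart from 2359 to 2568 and from 2398 to 2707. Leaving out the 3 libraries that stood apart, an alternative chosen after seeing the data, gave 4118 and 4511. Same-numbered samples were checked for shared deviations from their group means: across the lines the correlations ran from -0.06 to 0.08 over 6 pairs (0 over 0.1), and across the times of a line from -0.01 to 0.507 (2 of 6 over 0.1), the highest for MEL202 replicate 2. Across the times 6 of 12 samples correlated best with their own number, and across the lines 4 of 12. Not every pair passed 0.1, and the labels tie no number to a batch or day, so the fit reported has no replicate block. The fit with the replicate block gave 3910 and 3856, or 2385 and 2445 at least 2-fold apart; of the genes named in the report it ended the call of GNA11 (adjusted p = 0.0619), and that of DPF2. Genes called for time numbered 12 with offsets for GC content and length, 35 with no filter on low counts, 16 with DESeq2, 80 with limma-voom, 21 with the 18 DMSO samples of 3 lines and 84 with the 36 samples. For the line by time difference they numbered 158 with no filter, 2 with DESeq2, 1569 with limma-voom, 219 with the 36 samples, and from 0 to 413 with 1 library left out, the highest without MP41 24 h replicate 3. The causes were not tested. Of the 213 named genes that were called, 170 kept call and direction in every alternative and leave-out. Log2 differences that changed sign were near 0 in most cases: BAP1 0.14 and TYRP1 -0.039 at 24 h alone, CCND1 -0.051, SMARCA4 -0.01 and SOX10 -0.26 at 4 h alone, HLA-F 0.023 with the summed stranded columns, CDKN1A 0.035 with library size alone and from -0.119 to 0.042 with 1 library left out. For YAP1 the difference was -0.003 with relative log expression and with DESeq2, -0.05 with limma-voom, -0.009 with the stranded columns, -0.31 at 24 h alone, and from -0.10 to 0.11 with 1 library left out. Counts of called list members moved by over 1.5 times in 48 of 744 values under alternatives that kept both times, in 28 of 124 with 1 time alone and in 45 of 744 with 1 library left out, mostly counts of 5 or fewer. The median on 8p lay between -1.76 and -1.64 under the 3 alternatives run for arms. The spread between libraries sets what could be called: the median standard error of a log2 difference was 0.24.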
